A study of Mus musculus with 6 samples.

Results

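Promyelocytes, the granulocyte precursors that fill the first neutrophil granules, were described among CD45+ cells sorted from mouse liver. A cell was taken as a promyelocyte when the mean of its deposited scaled scores for Elane and Mpo was above 1.5 and the mean for Cd34 and Sox4, genes of earlier progenitors, was at or below 1.5. The rule found 1162 of 23008 cells. They came from 5 of 6 single-cell RNA-seq libraries. Each library was the only one of its group and was a pool of mice, so no test between groups was made, and every interval given is a 95% interval that covers counting error only.

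Balb/c mice were injected in the heart with 4T07 cells, a mammary tumour line of the mouse. The tumour cells were either control (Ctrl) or carried a knockdown of Tim3 (Tim3-KD), so the knockdown concerned the injected tumour cells and not the host's bone marrow or liver. Liver pieces were taken as tumour-free adjacent tissue at day 3, as micrometastasis at day 3 and as macrometastasis at day 12, each from Ctrl and from Tim3-KD mice. All groups therefore shared the injection and the CD45 sort, no library came from a mouse without tumour cells, and site and day changed together in macrometastasis.

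In the marrow a myeloblast becomes a promyelocyte, then a myelocyte and a metamyelocyte. The promyelocyte makes the azurophil (primary) granules, which hold myeloperoxidase and a family of serine proteases. Lactoferrin and the other specific granule proteins follow in the myelocyte, and gelatinase granules later still. Promyelocytes still divide, whereas metamyelocytes have left the cell cycle. Elane encodes neutrophil elastase and Mpo encodes myeloperoxidase. Because these genes chose the cells, their own levels are a description of the choice and not a result.

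The promyelocytes held far more RNA molecules than the average cell of their library. Their median was 32350 to 48782 unique molecular identifiers (UMIs, the counted RNA molecules) in the 5 libraries, against 6300 to 10248 for all cells of the 6 libraries. They made up 5.05% of all cells. Summed over the promyelocytes, each library gave between 2304561 UMIs (macrometastasis Ctrl) and 19466558 UMIs (micrometastasis Tim3-KD). No more than 11 cell barcodes were shared by any pair of libraries.

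The cut fell within a continuous range of scores. The promyelocyte of lowest score stood at 1.51 in adjacent Ctrl, 1.52 and 1.5 in micrometastasis Ctrl and Tim3-KD, and 1.51 and 1.5 in the macrometastasis pair, and the nearest cell outside stood at 1.49 or 1.5 in all of them. Libraries are listed in that order wherever they are not named, with Ctrl before Tim3-KD. Of the promyelocytes, 6, 7, 33, 4 and 28 lay between 1.5 and 1.6 in that order of libraries, and 8, 10, 29, 3 and 18 cells lay between 1.4 and 1.5. A further 12, 3, 19, 5 and 26 cells passed for Elane and Mpo and were left out for Cd34 and Sox4. Scores were scaled within each site, so the cut stood at another RNA level in each of them. The cell of lowest score had 456 UMIs of Elane and Mpo among 45815 in micrometastasis Ctrl, 52 among 46536 in adjacent Ctrl and 1 among 4476 in macrometastasis Ctrl.

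Most of these cells carried the rest of the promyelocyte programme. The label was checked on 5 markers that the rule did not use: Prtn3 (proteinase 3), Ctsg (cathepsin G), Prss57 (a granule serine protease), Ms4a3 (a membrane protein of granulocyte and monocyte precursors) and Cst7 (cystatin F). At least 3 of the 5 were detected in 981 promyelocytes and all 5 in 863. The cells with at least 3 were 70 of 94 in adjacent Ctrl, 78 of 84 in micrometastasis Ctrl, 591 of 607 in micrometastasis Tim3-KD, 48 of 77 in macrometastasis Ctrl and 194 of 300 in macrometastasis Tim3-KD. These were 92.9% and 97.4% of the cells in micrometastasis, and 62.3% and 64.7% in macrometastasis (exact binomial intervals 50.6 to 73.1% and 59.0 to 70.1%). The 5 markers do not part neutrophil from monocyte precursors: 181 of the 981 cells were high in monocyte genes and most of them low in Cebpe and Fcnb, which goes against the name. Promyelocyte is used here for every cell that passed the rule.

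The other 181 cells were small libraries with little Elane or Mpo, and 120 of them had none of the 5 markers. Their median was 3402 to 5231 UMIs per cell. They carried 3.04 to 8.64 UMIs of Elane and Mpo per 10000 UMIs at the median, against 71.0 to 118 in the cells with the markers. In both macrometastasis libraries the median such cell had passed on 1 UMI. Of these cells 9, 1, 5, 19 and 51 in the order of libraries above also held at least 3 UMIs of B, T, Kupffer, hepatocyte or endothelial markers. They held 0.405 to 5.2% of the UMIs summed over the promyelocytes of a library, so summed levels rested on the cells with the markers, while shares of cells did not. Shares among CD45+ cells, among later stages and in the cell cycle are given for both. The subset was defined after the values were seen.

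Prtn3 and Elane are neighbours on mouse chromosome 10. In the GENCODE vM21 annotation (GRCm38) Prtn3 lies at chr10:79874476-79883174 and Elane at chr10:79886247-79888215, both on the plus strand, with Cfd, another serine protease gene, just beyond at chr10:79890853-79892655 and Prss57 at chr10:79781474-79790961 on the minus strand. The sequence before the start of 3 of the markers is printed because these genes were high together in every library. The stretches are taken from the RefSeq promoter windows (GRCm38.p6) and end at the base before an annotated exon, which for Prtn3 is the first exon of the coding transcript, since a longer noncoding transcript starts further upstream: chr10:79886112-79886246 for Elane, chr10:79879467-79879613 for Prtn3, and chr19:11640852-11641051, minus strand, for Ms4a3. Capitals mark a match to GAGGAA, the purine-rich core read by ETS factors such as PU.1, or to TTNNGNAA, the C/EBP core.
Elane: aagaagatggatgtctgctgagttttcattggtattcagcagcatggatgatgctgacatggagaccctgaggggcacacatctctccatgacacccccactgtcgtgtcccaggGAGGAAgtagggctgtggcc
Prtn3: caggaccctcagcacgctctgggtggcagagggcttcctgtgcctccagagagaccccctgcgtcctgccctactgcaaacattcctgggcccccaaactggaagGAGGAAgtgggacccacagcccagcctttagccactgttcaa
Ms4a3: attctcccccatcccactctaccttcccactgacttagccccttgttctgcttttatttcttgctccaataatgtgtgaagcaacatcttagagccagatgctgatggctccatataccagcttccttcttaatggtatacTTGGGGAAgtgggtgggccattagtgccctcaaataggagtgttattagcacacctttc
Within 200 bases before the RefSeq start and on either strand, GAGGAA stood 85 bases before the start of Elane and 95 bases before that of Prtn3, and TTNNGNAA stood 59 bases before that of Ms4a3. No match to these letters was found in the windows of Mpo, Ctsg and Cst7. Prss57 had no entry in the table. These letters are common: among 32843 promoter windows of that length, 19.0% held GAGGAA, 30.0% held TTNNGNAA and 6.12% held both. A match says nothing of binding, which was not measured.

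The share of promyelocytes among CD45+ cells differed between libraries by more than counting error. It was 94 of 1803 cells (5.21%, 4.23 to 6.34%) in adjacent Ctrl and 0 of 542 in adjacent Tim3-KD, which allows a share of up to 0.554% by a limit of 3 cells (exact binomial upper limit 0.678%). It was 84 of 5106 (1.65%, 1.31 to 2.03%) in micrometastasis Ctrl and 607 of 5142 (11.8%, 10.9 to 12.7%) in micrometastasis Tim3-KD. In macrometastasis it was 77 of 4913 (1.57%, 1.24 to 1.95%) for Ctrl and 300 of 5502 (5.45%, 4.87 to 6.09%) for Tim3-KD. Tim3-KD was the higher library at both metastatic sites and the lower one in adjacent tissue.

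The difference of Tim3-KD from Ctrl was 10.2 percentage points (9.22 to 11.1) in micrometastasis and 3.89 points (3.20 to 4.59) in macrometastasis, or 7.18-fold (5.70 to 9.13) and 3.48-fold (2.7 to 4.53). In adjacent tissue it was -5.21 (-6.34 to -4.04). The fold in micrometastasis depended on the cut. With 1 cut on UMIs for all sites the Tim3-KD and Ctrl shares there were 16.1% and 3.94%, a smaller ratio. With a score cut of 1 they were 14.9% and 3.66%, also a smaller ratio. With a score cut of 2 they were 8.93% and 0.862%, a larger ratio. The adjacent Tim3-KD library held almost no transcripts of most granulocyte precursor genes looked at. Over its 542 cells it had 0 UMIs of Elane, Prss57, Ms4a3, Fcnb, Ltf and Ly6g, 1 of Mpo and 2 of Ctsg, and no cell that passed for a myelocyte or metamyelocyte. It also had 4 UMIs of Cebpe in 2 cells, 13 of Prtn3 in 7 cells and 67 of Cst7 in 34 cells. A lower share of neutrophil precursors in that tissue and a difference in how that 1 library was taken or sorted cannot be told apart.

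Counting only the cells with at least 3 of the 5 markers, the shares were 3.88% (3.04 to 4.88%) in adjacent Ctrl, 1.53% (1.21 to 1.90%) and 11.49% (10.6 to 12.4%) at the micrometastatic site, Ctrl first, and 0.977% (0.721 to 1.29%) and 3.53% (3.05 to 4.05%) at the macrometastatic one. The order of the libraries within each site was the same. Among Ctrl libraries the share was 3.57 points lower in micrometastasis than in adjacent tissue (2.56 to 4.74), but with 1 cut on UMIs for all sites it was 4.49% in adjacent tissue and 3.94% in micrometastasis, a difference of -0.556 points. Macrometastasis Ctrl minus micrometastasis Ctrl was -0.0779 points, with an interval of -0.575 to 0.421 that holds 0, and -2.80 points with 1 cut on UMIs.

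**Figure D1:**
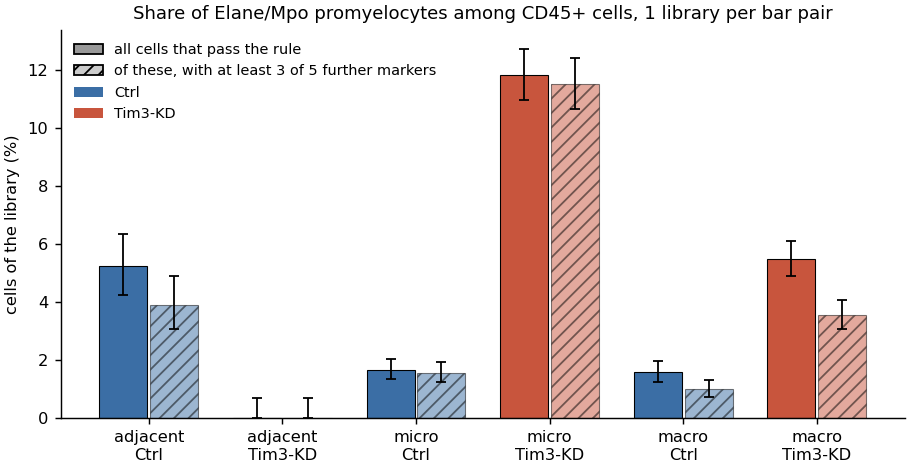
Share of promyelocytes among the CD45+ cells of each library (y axis, percent; x axis, site and tumour line; 1 library per pair of bars; plain bars, all cells that pass the rule; hatched bars, those with at least 3 of 5 further markers; error bars, 95% exact binomial intervals). Micrometastasis Tim3-KD stands highest at 11.8%, and adjacent Tim3-KD has 0 of 542 cells.

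Beside the later stages of the same libraries, the cells that passed the rule were also the larger part in Tim3-KD. Among promyelocytes, myelocytes and metamyelocytes together they were 43.0% (40.4 to 45.6%) in micrometastasis Tim3-KD against 16.2% (13.1 to 19.6%) in Ctrl. In macrometastasis they were 37.6% (34.3 to 41.1%) against 17.0% (13.7 to 20.8%), and in adjacent Ctrl 24.0% (19.8 to 28.5%). Myelocytes were cells scored above 1.5 for Fcnb and Cebpe without being promyelocytes or progenitors, and metamyelocytes were the remaining cells scored above 1.5 for Ltf, Ly6g and Cd177. They numbered 132 and 304 in micrometastasis Ctrl and 306 and 499 in Tim3-KD. Cells high in monocyte genes, described further on, go against the name of neutrophil precursor and were unequally divided: they were 7.14% of all promyelocytes in micrometastasis Ctrl and 17.3% in Tim3-KD, and 16.9% and 30% in macrometastasis. In macrometastasis Ctrl these were 13 cells, of which 0 had at least 3 markers. Cells there with fewer markers had a median of 3403 UMIs, so that few UMIs passed the cut. Without the cells high in monocyte genes at any stage the shares were 15.6% (12.5 to 19.1%) for Ctrl and 38.6% (35.99 to 41.4%) for Tim3-KD in micrometastasis, 15.1% (11.8 to 18.9%) and 30.6% (27.1 to 34.2%) in macrometastasis, and 15.1% (11.5 to 19.3%) in adjacent Ctrl. Counting only promyelocytes with at least 3 markers, and all cells of the later stages, they were 15.2% and 42.3% in micrometastasis, 11.3% (8.49 to 14.8%) and 28.1% (24.8 to 31.6%) in macrometastasis, and 19.0% in adjacent Ctrl. With both limits they were 15.1% and 38.2% in micrometastasis, 11.8% and 23.3% in macrometastasis, and 12.0% in adjacent Ctrl. Tim3-KD was the higher library at both metastatic sites under each choice, while the order of the Ctrl libraries changed.

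The azurophil granule genes were abundant in all 5 libraries. Levels are UMIs per 1000000 UMIs of the summed promyelocytes (CPM). Prtn3 was at 9166 CPM in adjacent Ctrl, 14267 and 13536 CPM in micrometastasis, and 11645 and 11698 CPM in macrometastasis. Ctsg stood at 2988, 6844, 8745, 9253 and 7243 CPM in the same order. Adjacent Ctrl was the lowest library for both genes, and at each metastatic site Ctrl and Tim3-KD differed by less than 1.5-fold.

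Adjacent Ctrl was also the lowest library for the other markers. Ms4a3 was at 1075 CPM in adjacent Ctrl and 1668 to 2120 CPM in the others, Prss57 at 167 CPM and 289 to 369 CPM, and Cst7 at 107 CPM and 177 to 204 CPM. Serpinb1a, an inhibitor of the granule proteases, was at 915 CPM in adjacent Ctrl, 2062 and 2146 CPM in micrometastasis and 1290 and 1177 CPM in macrometastasis. Elane itself, which chose the cells, was at 4705, 8930, 8110, 6462 and 6301 CPM in the order of libraries above, and Mpo at 3413 to 3976 CPM.

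Transcripts of these genes were also found in lymphocytes of the same libraries, as free RNA in the droplets can give. With every cell thinned to 1500 UMIs, Prtn3 was detected in 4.97 to 16.1% of T cells, whose median was 5461 to 12454 UMIs, in 1.04 to 29.9% of B cells, whose median was 3712 to 6099 UMIs, and in 63.6 to 98.0% of promyelocytes. Ctsg was detected in 1.49 to 4.97% of T cells, 0.894 to 27.2% of B cells and 54.5 to 90.8% of promyelocytes. Both genes were highest among B cells in micrometastasis Tim3-KD, where 20 of 147 B cells also passed the rule. In each library the share was higher in promyelocytes than in B or T cells. The promyelocytes without 3 of the markers lower these shares, and the subset with them has no such share of its own, since both genes chose it.

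Genes outside the rule marked the same cells. Of 1621 genes held by all 3 matrices, 28 were at least 2-fold higher in promyelocytes than in all other cells of the library in all 5 libraries, and 766 were at least 2-fold lower. These ratios describe the selection, since the cells were chosen by scores of the same data. Ctsg was highest by its lowest ratio, 9.60-fold in micrometastasis Ctrl and up to 136-fold in macrometastasis Ctrl. Next came Prss57 (8.09- to 51.0-fold), Ms4a3 (7.83- to 129-fold) and Prtn3 (7.15- to 66.7-fold). All 4 of these ratios were highest in macrometastasis Ctrl, where the other cells held the fewest of these transcripts.

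The remaining genes of the 20 highest had a range of known roles. Fkbp11, a prolyl isomerase of the secretory pathway, was 5.25- to 16.8-fold higher, and Cd63, a tetraspanin of azurophil granule membranes, 2.94- to 5.77-fold. Nkg7, a granule membrane protein best known from cytotoxic lymphocytes, was at 378 to 719 CPM in promyelocytes and 3.35- to 5.2-fold higher than in all other cells. Rrm2 and Dut, enzymes of nucleotide supply, and Mcm3, a subunit of the replicative helicase, stood at least 3.88-, 3.51- and 2.58-fold higher. Myb, a transcription factor of immature blood cells, was at 68.7 to 97.1 CPM. Gstm1, Fdps of the mevalonate pathway, Coq7 of ubiquinone synthesis, the linker histone H1f5, and Cst7, Dmkn, Rgcc, Ramp1 and Fcnb completed the 20.

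Placed beside the neighbouring stages of the same libraries, the promyelocytes held the highest levels of Prtn3 and Ctsg, and levels of 7 of 8 specific granule genes looked at that were above those of progenitors and below those of myelocytes. Prtn3 was at 687 to 2796 CPM in progenitors (cells scored above 1.5 for Cd34 and Sox4), 9166 to 14267 CPM in promyelocytes, 893 to 3656 CPM in myelocytes and 32.6 to 98.8 CPM in metamyelocytes. Ctsg dropped sooner, from 2988 to 9253 CPM in promyelocytes to 9.09 to 218 CPM in myelocytes, with 736 to 1938 CPM in progenitors. The ranges of promyelocytes and myelocytes did not overlap for either gene, and the rule makes part of this difference, since myelocytes had to score low for Elane and Mpo.

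Regulators and later genes ordered the stages in other ways. Cebpe, a transcription factor needed for the passage beyond the promyelocyte, was at 1.16 to 29.9 CPM in progenitors, 290 to 643 CPM in promyelocytes and 324 to 766 CPM in myelocytes. Myb was at 57.3 to 137 CPM in progenitors and 68.7 to 97.1 CPM in promyelocytes, and at 5.22 to 15.2 CPM in myelocytes. Ltf, the lactoferrin of specific granules, was at 1.16 to 21.7 CPM in progenitors, 80.8 to 389 CPM in promyelocytes and 3433 to 8073 CPM in myelocytes. Cd177, a surface protein of neutrophils, was at 2.01 to 8.63 CPM, 98.9 to 224 CPM and 796 to 956 CPM in the same stages. In macrometastasis, whose matrix was the only one to hold them, Camp, the cathelicidin of specific granules, was at 5.28 and 5.81 CPM in progenitors, 2457 and 4304 CPM in promyelocytes and 20573 and 23097 CPM in myelocytes as the lower and higher of the 2 libraries, Ngp (neutrophilic granule protein) at 24.0 and 28.9, 4978 and 8381, and 29956 and 32762 CPM, and Lcn2 (lipocalin 2) at 69.6 and 98.0, 1624 and 2880, and 12154 and 15194 CPM. Chil3, a chitinase-like protein, and Cybb, a subunit of the NADPH oxidase measured in 3 libraries, also lay between, at 175 to 383 CPM and 331 to 460 CPM in promyelocytes. Mmp8, the neutrophil collagenase, did not: it was at 4.01 to 39.3 CPM in progenitors, 12.9 to 26.0 CPM in promyelocytes and 41.2 to 203 CPM in myelocytes, and in both micrometastasis libraries progenitors stood above promyelocytes. Ly6g, the surface antigen of mature mouse neutrophils, was at 1.32 to 12.9 CPM in progenitors, 6.52 to 38.2 CPM in promyelocytes and 288 to 904 CPM in myelocytes, and Cxcr2, the receptor for marrow exit, at 9.20 to 19.3 CPM against 196 to 443 CPM in metamyelocytes. The rule for myelocytes used Cebpe, and that for metamyelocytes Ltf, Ly6g and Cd177, so those levels are set in part by the choice of cells.

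**Figure D2:**
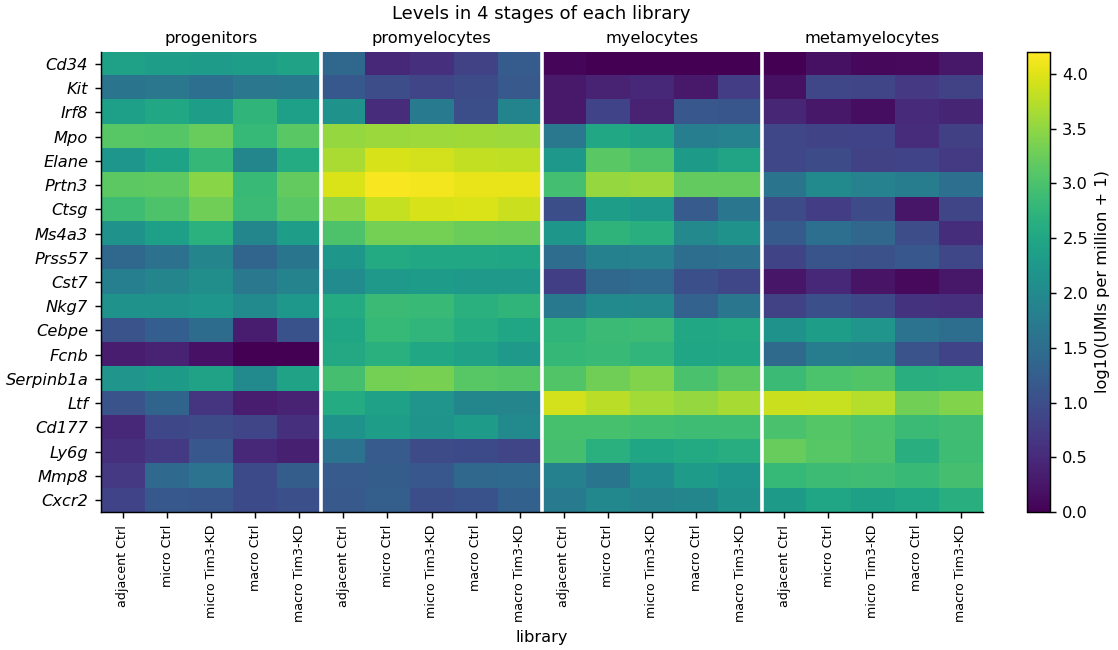
Levels of 19 genes (rows) in progenitors, promyelocytes, myelocytes and metamyelocytes of the 5 libraries (columns), as log10 of CPM plus 1. Azurophil genes such as Prtn3 are brightest in the promyelocyte block at 9166 to 14267 CPM, and Ltf goes from 80.8 to 389 CPM there to 3433 to 8073 CPM in the myelocyte block.

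Many promyelocytes held transcripts of DNA replication and of mitosis. After thinning to 1500 UMIs, at least 2 UMIs over the DNA replication list (4 genes held by all matrices) were found in 33.0% of promyelocytes in adjacent Ctrl, 52.4% and 39.4% in micrometastasis, and 19.5% and 28.0% in macrometastasis. For the mitosis list (12 genes) the shares were 80.9%, 89.3%, 92.6%, 59.7% and 60%. Micrometastasis was the higher site for both lists, and Ctrl and Tim3-KD intervals overlapped at each metastatic site.

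Nearly all cells that counted for the replication list had at least 3 markers: 30 of 31, 43 of 44, 239 of 239, 15 of 15 and 83 of 84. Among cells with at least 3 markers, the replication shares were 42.9% (31.1 to 55.3%), 55.1% (43.4 to 66.4%), 40.4% (36.5 to 44.5%), 31.2% (18.7 to 46.2%) and 42.8% (35.7 to 50.07%) in the same order, with intervals that overlapped, and the mitosis shares were 89.2 to 94.4%. Progenitors had replication shares of 3.30 to 16.2% and myelocytes of 4.92 to 23.5%, both under the share of promyelocytes with at least 3 markers in each library. Metamyelocytes had 0.00 to 1.97%, with mitosis shares of 21.3 to 50.3%. Mki67, a marker of cycling cells, was at 124 to 189 CPM in promyelocytes and 190 to 339 CPM in myelocytes, and Top2a, which untangles replicated DNA, at 139 to 274 CPM and 152 to 326 CPM.

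**Figure D3:**
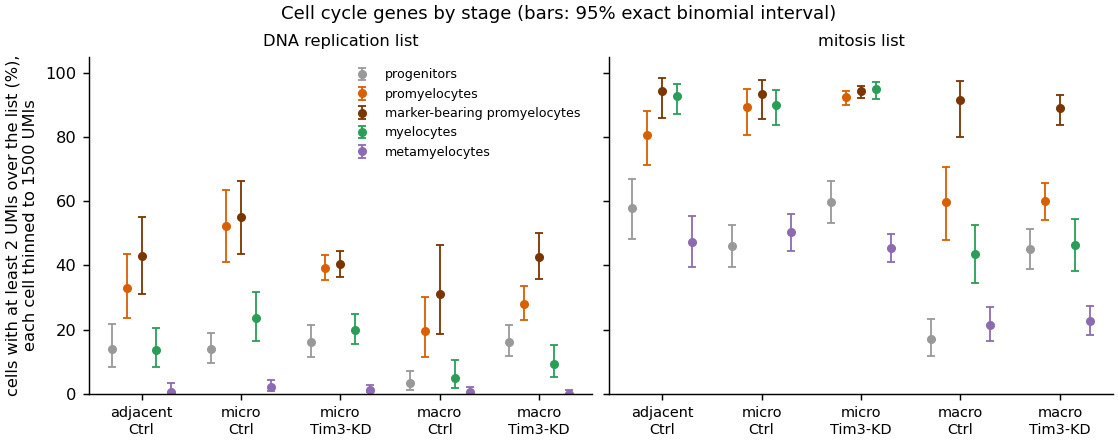
Share of cells with at least 2 UMIs over the DNA replication list (left) or the mitosis list (right) after each cell was thinned to 1500 UMIs, for 5 kinds of cells in 5 libraries (points, shares in percent; bars, 95% exact binomial intervals). Promyelocytes with at least 3 further markers have replication shares of 31.2 to 55.1%, and metamyelocytes at most 1.97%.

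The promyelocytes spread between a neutrophil side and a monocyte side. Irf8, a transcription factor of monocyte precursors, Csf1r, the receptor for macrophage growth factor, F13a1, Ccr2, the receptor that leads monocytes out of the marrow, and Ms4a6c were summed per cell, and a cell with over 3 UMIs of these per 10000 UMIs was set apart. The division was made after the values were seen. Of the 981 cells with at least 3 promyelocyte markers, 181 were high in monocyte genes, and 32 lay near the cut, between 2 and 4 UMIs per 10000. Only 14 cells were above 3 UMIs per 10000 both for the monocyte genes and for Cebpe and Fcnb together, and 100 were at or under it for both.

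The share on the monocyte side differed between libraries. It was 30 of 70 cells in adjacent Ctrl (42.9%, 31.1 to 55.3%), 3 of 78 in micrometastasis Ctrl (3.85%, 0.8 to 10.8%), 99 of 591 in micrometastasis Tim3-KD (16.8%, 13.8 to 20.0%), 0 of 48 in macrometastasis Ctrl (interval up to 7.40%) and 49 of 194 in macrometastasis Tim3-KD (25.3%, 19.3 to 32.0%). At both metastatic sites Tim3-KD was the higher library, by 12.9 points (5.50 to 17.0) in micrometastasis and 25.3 points (16.0 to 31.8) in macrometastasis. Micrometastasis Ctrl minus adjacent Ctrl was -39.0 points (-50.95 to -26.1). With 1 cut on Elane and Mpo UMIs for all sites the shares were 43.0%, 11.1%, 23.2%, 7.14% and 27.6%, so Ctrl stayed the lower library at both metastatic sites with smaller gaps. In myelocytes the share was 2.29 to 11.9% and in progenitors, which were chosen by other genes, 39.5 to 54.8%.

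Genes outside the cut followed the division. In the 3 libraries with at least 20 cells on the monocyte side, Ly6c2, a surface antigen of classical monocytes, was at 813 to 1107 CPM on that side and 26.5 to 55.9 CPM on the other. S100a10 was at 1030 to 1137 CPM against 25.6 to 50.5 CPM, Klf4, a factor of monocyte differentiation, at 103 to 157 CPM against 1.22 to 2.20 CPM, and Ifi30, a lysosomal thiol reductase, at 276 to 354 CPM against 4.84 to 6.16 CPM. In the other direction, Cebpe was at 27.8 to 93.6 CPM on the monocyte side and 423 to 667 CPM on the other, Fcnb (ficolin B) at 14.7 to 68.7 CPM against 243 to 567 CPM, and Serpinb1a at 229 to 518 CPM against 1480 to 2454 CPM. None of these ranges overlapped. Camp was held by the macrometastasis matrix only, with 1.26 CPM against 3366 CPM.

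Both sides carried transcripts of dividing cells. Mki67 was at 213 to 230 CPM against 133 to 171 CPM, higher on the monocyte side in all 3 libraries. Azurophil genes that chose the cells are given as a description only: Prtn3, 1 of the 5 markers, was at 6238 to 7738 CPM on the monocyte side and 11911 to 14658 CPM on the other, Elane at 2412 to 3525 CPM and 6709 to 8986 CPM, and Mpo at 3040 to 3293 CPM and 3695 to 4424 CPM. The median UMIs of the cells on both sides were 57870 and 60171 in adjacent Ctrl, 31262 and 32916 in micrometastasis Tim3-KD, and 50658 and 48719 in macrometastasis Tim3-KD. A further 13 cells had over 5 UMIs per 10000 of the basophil and mast cell genes Mcpt8, Prss34 and Cpa3, 7 of them in micrometastasis Tim3-KD and 6 in macrometastasis Tim3-KD.

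**Figure D4:**
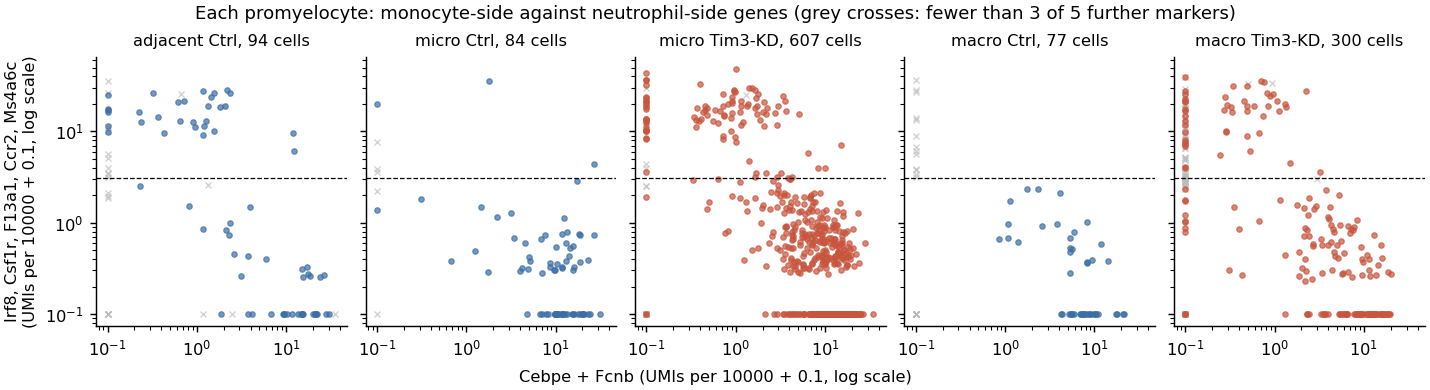
Every promyelocyte in the 5 libraries that had any, by its UMIs of Cebpe and Fcnb (x axis) and of Irf8, Csf1r, F13a1, Ccr2 and Ms4a6c (y axis), both per 10000 UMIs plus 0.1 on log scales; grey crosses are cells with fewer than 3 of 5 further markers and the dashed line is the cut of 3. Of the cells with at least 3 markers, 30 lie above the line in adjacent Ctrl, 99 in micrometastasis Tim3-KD and 49 in macrometastasis Tim3-KD, but 3 and 0 in the Ctrl libraries of the metastases.

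In micrometastasis, monocyte genes were higher in promyelocytes of Tim3-KD than in those of Ctrl. Of 1492 genes with at least 100 UMIs over both libraries, 86 (5.76%) were at least 2-fold higher in Tim3-KD and 36 (2.41%) at least 2-fold lower, with a median log2 ratio of 0.04. The balance depended on the cells taken: 51 were higher and 97 lower with a cut of 1, 62 and 51 with 1 cut on UMIs, and 64 and 115 as a mean over cells. Of the 16 genes measured here from the list of monocytes and monocyte precursors, 9 were at least 2-fold higher and 0 lower, with a median of 1.36: Fn1, Irf8, S100a4, Ms4a6c, Ly6c2, F13a1, Ccr2, Mpeg1 and Ly86. Irf8 was at 54.5 CPM in Tim3-KD and 2.38 CPM in Ctrl (22.9-fold, 11.1 to 56.99), with UMIs in 102 of 607 cells and 6 of 84. S100a10 was at 187 and 24.8 CPM (7.53-fold, 5.97 to 9.62). Itga1 (integrin alpha 1) and Trem2 had 117 and 101 UMIs in Tim3-KD and 0 in Ctrl, for which the exact lower limits of the ratio were 4.71- and 4.06-fold. The sizes depended on the cells taken. With 1 cut on UMIs for all sites the log2 ratio of Irf8 was 1.43, after 4.42, that of S100a10 1.18, after 2.90, and those of Itga1 and Trem2 1.84 and 2.00. That of Ccr2 was 1.83, and 0.029 with a cut of 2. That of Ly86 was of the other sign as a mean over cells, at -0.35.

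The azurophil genes were at like levels in both micrometastasis libraries. Of 11 measured, 1 was at least 2-fold higher, near the 5.76% of all genes, Ctsc, the protease that activates the granule serine proteases, and 0 were lower, with a median log2 ratio of -0.04. Ctsc was at 106 CPM in Tim3-KD and 27.6 CPM in Ctrl (3.85-fold, 3.08 to 4.87), but without the cells high in monocyte genes its log2 ratio was 0.08, after 1.94, and with 1 cut on UMIs 1.14. None of 14 mitosis genes was 2-fold different (median 0.18), 1 of 5 replication genes, Dut, was lower, where 2.41% of all genes were, and 0 of 7 specific granule genes were (median -0.35). Among transcription factors Irf8 was higher and Egr1, Ets1 and Myc were lower, out of 18, beside shares of 5.76% and 2.41% of all genes. The interferon list had 4 of 15 higher, beside the same 5.76%: Ifi204, Ifi209, Gbp3 and Cxcl10.

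Without the cells high in monocyte genes the count of higher genes in micrometastasis was 21 of 1290, with 33 lower. The removal itself took out most of the monocyte list, of which 6 genes were still measured. Of the 86 higher genes, 45 were still measured and 19 of these were still 2-fold higher. S100a10 was then at a log2 ratio of 0.52, after 2.90. Of the 36 lower genes, 21 were also 2-fold lower over all other cells of the libraries. B3gnt2, for instance, was at 0.565 CPM in promyelocytes of Tim3-KD against 39.8 CPM in Ctrl, a log2 ratio of -6.08, and at -5.34 over all other cells. H2-Aa, H2-Ab1, H2-Eb1 and C1qa were lower in Tim3-KD (log2 ratios of -3.73 to -4.01), but 1 Ctrl cell held 79.0 to 92.7% of the Ctrl UMIs of each, so these rest on single cells.

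In macrometastasis the same contrast gave 102 of 1050 genes at least 2-fold higher (9.71%) and 43 lower (4.10%), with a median log2 ratio of 0.10. Of 16 monocyte list genes, 12 were at least 2-fold higher and 1 lower, with a median of 1.75. Ccr2 was at 62.0 CPM in Tim3-KD and 3.47 CPM in Ctrl (17.9-fold, 9.01 to 41.6), and Ms4a6c at 154 and 9.55 CPM (16.1-fold, 10.6 to 25.8). Irf8 was 8.53-fold higher (5.54 to 13.9) and S100a10 10.2-fold (8.01 to 13.1). Ass1, which makes argininosuccinate, was at 82.0 and 9.98 CPM (8.22-fold, 5.44 to 13.04). With 1 cut on UMIs for all sites the log2 ratio of Ccr2 was 2.07, after 4.07, that of S100a10 1.52, after 3.33, that of Ms4a6c 3.31, after 3.98, that of Irf8 2.36, after 3.06, and that of Ass1 1.77, after 3.01. As a mean over cells Irf8 was at 0.53, under 2-fold, and in cells with at least 3 markers at 6.76. Others of the 12 were also under 2-fold as a mean over cells, 1 of them at 0.03 after 1.07, while F13a1 was at 2.13.

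Granule genes of later stages leaned the other way in macrometastasis. Of 12 specific and gelatinase granule genes, 3 were at least 2-fold lower in Tim3-KD, Cd177, Chil3 and Olfm4, and 0 were higher, with a median of -0.78, where 4.10% of all genes were lower and 9.71% higher. Cd177 was at 98.9 CPM in Tim3-KD and 202 CPM in Ctrl. A single Ctrl cell held 48.9% of the Ctrl UMIs of Olfm4. Among 15 mature neutrophil genes the cysteine protease inhibitors Stfa2, Stfa2l1 and Stfa3 were lower, against the same 4.10%, and Acod1 was higher. Stfa2l1 was at 219 and 781 CPM, of which 1 Ctrl cell held 22.7%. Of 12 azurophil genes, 1 was higher, a share near the 9.71% of all genes, again Ctsc (4.75-fold, 3.72 to 6.15), and the median was -0.06. Without the cells high in monocyte genes the log2 ratio of Ctsc was 0.29, after 2.24. As a mean over cells, that of Stfa2l1 was -0.88, after -1.83.

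Without the cells high in monocyte genes, 37 of 776 genes in macrometastasis were higher and 20 lower, and the median of the specific granule list was -0.38 with 1 gene lower. Of the 15 mature neutrophil genes 2 were then higher and 1 lower, with a median of 0.17, after -0.07. Of the monocyte list 5 genes were still measured, of which 1 was higher, with a median of 0.23. Of the 102 higher genes, 50 were still measured and 32 of these still 2-fold higher. S100a10 was then at a log2 ratio of 2.13, after 3.33, and Ass1 at 1.70, after 3.01. In promyelocytes with at least 3 markers, 115 of 910 genes were higher and 36 lower. Hmga1 and H2ac6 had the lowest ratios (-3.46 and -2.79), but the same matrix holds features that join them with related genes, and how the authors' counting divided the reads makes both uncertain.

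The contrasts at both metastatic sites shared no library, and part of the same genes stood out in each. Of 703 genes measured in both, 55 (7.82%) were at least 2-fold higher in micrometastasis and 80 (11.4%) in macrometastasis. The 37 genes higher in both were 67.3% of the former and 46.2% of the latter. They included 8 of the monocyte list's members named above, Irf8, Ccr2, Ms4a6c, Ly6c2, F13a1, Fn1, S100a4 and Mpeg1, with Ctsc, Crip1, S100a10, Ahnak, Lgals1 and Tmsb10. Without the cells high in monocyte genes little of this was left: of 511 genes measured in both, 10 were higher in micrometastasis, 27 in macrometastasis and 2, Ccl5 and Fabp5, in both. Of the 37 genes, 12 were still measured in both and 1 was still higher in both. F13a1, whose UMIs helped choose the cells left out, was then at -0.55 in macrometastasis, a value set in part by that choice. Ly6c2, which was not used for it, was then at -0.29 there, and Ctsc at 0.08 and 0.29 in the 2 sites. With all cells, 22 genes were lower in micrometastasis and 27 in macrometastasis. The 3 lower in both, Chchd10, Ets1 and H2-Eb1, were 13.6% of the former and 11.1% of the latter. In micrometastasis 1 Ctrl cell held 91.4% of the Ctrl UMIs of H2-Eb1. Myc, a driver of growth and division, was at 12.0 CPM in Tim3-KD and 24.8 CPM in Ctrl in micrometastasis (log2 ratio -1.05), where 1 Ctrl cell held 30.1% of its UMIs. In macrometastasis it was at 23.1 and 6.07 CPM (log2 ratio 1.88).

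**Figure D5:**
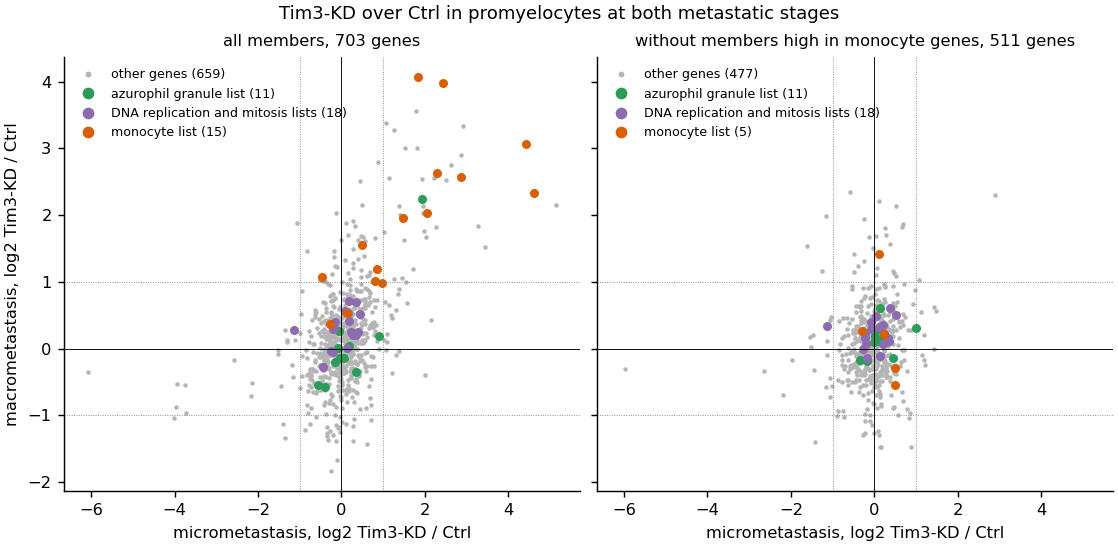
Log2 ratio of Tim3-KD over Ctrl in promyelocytes of micrometastasis (x axis) and macrometastasis (y axis), for 703 genes measured in both with all promyelocytes (left) and 511 genes without the cells high in monocyte genes (right); dotted lines mark 2-fold. Monocyte genes (orange) lie to the upper right in the left panel, with Irf8 at 4.42 and 3.06, and the azurophil genes (green) lie around 0 except Ctsc at 1.94 and 2.24.

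Among the Ctrl libraries, promyelocytes of micrometastasis held fewer monocyte transcripts than those of adjacent tissue of the same day. Of 543 genes, 29 (5.34%) were at least 2-fold higher in micrometastasis and 83 (15.3%) lower, with a median log2 ratio of -0.09. With 1 cut on UMIs for all sites 58 of 1069 were higher and 67 lower. Of 14 monocyte list genes 13 were lower and 0 higher, with a median of -2.84. Irf8 was at 2.38 CPM in micrometastasis and 144 CPM in adjacent tissue, S100a10 at 24.8 and 509 CPM, and Crip1 at 20.4 and 474 CPM. Of 11 azurophil genes, Ctsg, Serpinb1a, Prss57 and Cd63 were higher and Ctsc lower, with a median of 0.93.

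Without the cells high in monocyte genes, 12 of 337 genes were higher and 19 lower, none of the 11 azurophil genes was 2-fold different, and their median was 0.34. Ctsc, at -3.43 with all promyelocytes, was then at 0.046. With 1 cut on UMIs for all sites and all promyelocytes, the log2 ratio of Irf8 was -2.26, after -5.82, that of S100a10 -1.96, after -4.35, that of Crip1 -2.57, after -4.53, that of Ctsc -2.06 and that of Ctsg 0.97, after 1.20. Prss57 (0.91) and Cd63 (0.74) were then also under 2-fold, and Serpinb1a was at 1.01. Rgcc, a regulator of the cell cycle, was 6.39-fold higher in micrometastasis (4.75 to 8.72), and 11 of the 29 higher genes were also at least 2-fold higher over all other cells.

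Between Ctrl promyelocytes of macrometastasis and micrometastasis, where site and day differ together, 38 of 291 genes (13.1%) were at least 2-fold higher in macrometastasis and 10 (3.44%) lower, with a median log2 ratio of 0.10. With 1 cut on UMIs 38 of 637 were higher and 52 lower. None of 11 azurophil genes was 2-fold different (median -0.16) and none of 14 mitosis genes (median -0.20). Of 12 mature neutrophil genes 6 were higher, Stfa2l1, Stfa3, Stfa2, Trem1, Il1r2 and Ccl6, with a median of 0.99. Stfa2l1 was at 781 and 71.5 CPM (10.9-fold, 9.47 to 12.7), in 32 of 77 and 36 of 84 cells, and its log2 ratio was 2.07 as a mean over cells and 4.46 with a cut of 2, after 3.45. Ltf was at 83.7 and 250 CPM and Fdps at 193 and 408 CPM, both lower in macrometastasis. Their log2 ratios were -1.58 and -1.08 in promyelocytes, and -1.91 and -1.84 over all other cells of the libraries.

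Igkc, Ighm, C1qa and C1qc were among the higher genes in macrometastasis, where 44 of 77 Ctrl promyelocytes held at least 3 UMIs of other cell types, against 13 of 84 in micrometastasis. Summed over the B cell and plasma cell list, promyelocytes held 43.3 to 527 CPM, and over the Kupffer cell and macrophage list 59.8 to 341 CPM, both highest in macrometastasis Ctrl. Without the cells that held such UMIs, 23 of 186 genes were higher and 15 lower. Among cells with at least 3 markers, 23 of 257 genes were higher and 17 lower.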

How the data were processed

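CD45+ cells from liver were profiled by droplet single-cell RNA-seq (10x Genomics 3′ chemistry). Per the submitters' processing notes, reads were trimmed with Trim Galore 0.4.3 and mapped with STAR 2.7.7a to GRCm38. The authors removed doublets, kept variable genes and deposited, for each site, 1 matrix of scaled scores with both libraries in it (4486, 2669 and 2643 features in adjacent tissue, micrometastasis and macrometastasis, 1642 in all 3). A score is relative to the cells of its matrix and is limited to 10.

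The design foresaw counts. The files held scores, which were therefore inverted to UMIs, a step tested on simulated data. Of the recovered values, 99.99977%, 99.99986% and 99.99689% lay within 0.05 of a whole number. Scores at the limit (0.144, 0.161 and 0.153% of detected values) gave lower bounds, and Cst3 could not be recovered in adjacent tissue and micrometastasis. A gene absent from a matrix was not analysed there. Features that join several genes (128, 42 and 48) were left out of ratios, a choice made after the values were seen.

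UMIs were summed over the promyelocytes of each library. Sums have exact Poisson intervals, shares Clopper-Pearson intervals, ratios exact conditional binomial intervals and differences of shares Newcombe intervals from Wilson limits, all at 95%. A gene was called at a 2-fold ratio when both sums together held at least 100 UMIs and the rule did not use it. With 1 library a group no p-value was computed. Named genes were the members of 21 gene lists, the 10 highest and 10 lowest ratios of each contrast, and the 20 highest genes of promyelocytes over all other cells. Genes named for both sites of the Tim3-KD contrast were chosen after their values were seen. Of the monocyte list, 1 gene is not reported here by name. The members and lists were chosen with earlier results of these data known. Alternatives were cuts of 1 and 2, 1 cut on UMIs, other denominators, 30 UMIs, means over cells, no thinning (1 random draw per cell and list, shared by all kinds of cells), and leaving out cells. Python 3.11.15, numpy 2.4.6, pandas 2.3.3, scipy 1.17.1 and matplotlib 3.10.9 were used.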

Additional observations from a re-analysis of the deposited data

Results flagged for a closer look

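The share of promyelocytes moved in opposite directions between Tim3-KD and Ctrl. It was 5.21 percentage points lower in Tim3-KD in adjacent tissue (-5.21), and 10.2 points higher in micrometastasis and 3.89 points higher in macrometastasis. The adjacent value rests on a library of 542 cells with 0 UMIs of Elane.

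Myc in promyelocytes was lower in Tim3-KD in micrometastasis (log2 ratio -1.05) and higher in macrometastasis (1.88). In micrometastasis 1 Ctrl cell held 30.1% of the Ctrl UMIs of Myc, and macrometastasis Ctrl had 14 UMIs of it in all. Over all other cells the log2 ratios were -0.96 and 0.33. With 1 library a group, none of these differences was tested.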

How the results depend on the processing

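No paired analysis was possible because each group held 1 library and the labels give no replicate numbers. A fit of tumour line over the 3 sites with site as a block was not run, since the sites are conditions and not replicates. The difference in share between Tim3-KD and Ctrl kept its sign at each site, though 1 interval in adjacent tissue held 0. In adjacent tissue it was -9.43 points with a cut of 1, -3.99 with a cut of 2, -6.62 without cells with UMIs of other cell types (-8.32 to 5.52, since 28 Tim3-KD cells were left) and -3.88 in cells with at least 3 markers. In micrometastasis it was 11.3, 8.06 and 12.0 under the first 3 of these, 12.1 with 1 cut on UMIs and 26.8 among neutrophil precursors. In macrometastasis it was 5.00, 2.25 and 5.87 under those 3, 2.97 with 1 cut on UMIs, 20.6 among precursors and 2.55 with at least 3 markers. Micrometastasis Ctrl minus adjacent Ctrl was -5.77 with a cut of 1, -0.556 with 1 cut on UMIs, -7.83 among precursors and -2.35 with at least 3 markers. Macrometastasis Ctrl minus micrometastasis Ctrl was -1.69 with a cut of 1, -2.80 with 1 cut on UMIs, and of the other sign with a cut of 2 (0.217) and among precursors (0.882). Adjacent Tim3-KD had no precursor and so no value there. Among precursors, macrometastasis Tim3-KD minus Ctrl was 15.5 without the cells high in monocyte genes at any stage and 11.5 with at least 3 markers as well. Micrometastasis Ctrl minus adjacent Ctrl was then 0.528 and 3.08, and macrometastasis Ctrl minus micrometastasis Ctrl -0.506 and -3.33, and -3.83 with at least 3 markers alone. These limits among precursors were chosen after seeing the data.

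Without thinning, replication shares were 84.0, 92.9, 97.0, 66.2 and 64.3% in the 5 libraries, and mitosis shares 89.4, 96.4 and 98.5% in the first 3 and 71.3% in macrometastasis Tim3-KD. The number of genes at least 2-fold different, 122, 145, 112 and 48 for micrometastasis and macrometastasis (Tim3-KD over Ctrl) and the Ctrl contrasts, was 245, 307, 298 and 177 with at least 30 UMIs, and 54, 57 and 31 in the first 3 without the cells high in monocyte genes. It was 92 in macrometastasis with a cut of 2. For the last contrast it was 77 with a cut of 1, 90 with 1 cut on UMIs (38 higher and 52 lower) and 106 as a mean over cells.

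Of 1876 values of 168 named ratios under 12 settings, 1385 stayed within their counting interval. Among the 113 ratios that were at least 2-fold, 6 values were of the other sign: Ifi30 in micrometastasis (-0.37, cut of 1), Ly86 there (-0.35, mean over cells), F13a1 and Ly6c2 in macrometastasis (-0.55 and -0.29) and Ctsc in micrometastasis over adjacent tissue (0.046), all 3 without the cells high in monocyte genes, and Hspa1a in macrometastasis over micrometastasis (-0.33, 1 cut on UMIs). F13a1 was among the genes that chose the cells left out, so its value is set in part by that choice. The causes of the other changes were not tested. Of the 55 ratios under 2-fold, 28 had a value of the other sign under at least 1 setting. Macrometastasis Ctrl had 77 promyelocytes and 2304561 UMIs, and adjacent Tim3-KD 0 among 542 cells. The intervals do not cover the spread between mice or libraries.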

Other observations

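Some interferon-responsive genes were higher in promyelocytes of Tim3-KD at each metastatic site. In macrometastasis 5 of 10 measured were at least 2-fold higher, against 9.71% of all genes, and 0 lower, with a median log2 ratio of 0.91: Gbp3, Ifi209, Ifi27l2a, Isg15 and Slfn1. Ifi27l2a, an interferon-induced membrane protein, was at 75.9 CPM in Tim3-KD and 23.4 CPM in Ctrl (3.24-fold, 2.46 to 4.35). Isg15, a ubiquitin-like modifier, was at 18.5 and 5.64 CPM (3.29-fold, 1.87 to 6.29). In micrometastasis, where 4 of 15 were higher against 5.76% of all genes with a list median of 0.27, Gbp3, a guanylate-binding protein, was at 13.2 and 4.42 CPM (2.98-fold, 1.71 to 5.68). Without the cells high in monocyte genes, 2 of 11 genes in micrometastasis and 2 of 7 in macrometastasis were still 2-fold higher, with medians of 0.036 and 0.65. Over all genes measured in that setting, 21 of 1290 and 37 of 776 were higher. As a mean over cells Ifi209 was under 2-fold at both sites (0.86 and 0.88, after 2.86 and 2.90). Between Ctrl libraries, 3 of 7 were lower in micrometastasis than in adjacent tissue, where 15.3% of all genes measured were, with Ifi27l2a at 23.5 and 160.0 CPM. Without the cells high in monocyte genes, 1 of 4 was lower in that contrast, where 19 of 337 genes were.

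Of the genes of acute stress and inflammation, 3 of 24 in micrometastasis, Egr1, Il1b and Saa3, were at least 2-fold lower in Tim3-KD, where 2.41% of all genes measured were. For Saa3, 1 Ctrl cell held 59.1% of the Ctrl UMIs. In macrometastasis 4 of 21, Atf3, Ccl4, Hsph1 and Nr4a1, were higher, where 9.71% of all genes were. The difference between the sites was not tested. Ccl4, a chemokine, was at 160.0 CPM in Tim3-KD and 63.4 CPM in Ctrl (2.53-fold, 2.13 to 3.01), and its log2 ratio was 2.35 without the cells high in monocyte genes. Between Ctrl libraries 7 of 19 were lower in micrometastasis than in adjacent tissue, against 15.3% of all genes, and Saa3 was higher, with 59.1% of its UMIs in 1 cell. Without the cells high in monocyte genes, 1 of 14 was lower and 1 higher, where 19 of 337 genes were lower and 12 higher.

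The lists of stem cells, protein folding, hepatocytes, liver endothelium, and erythroid cells and megakaryocytes had 0 genes at least 2-fold different in any of the 4 contrasts, with at most 6 genes measured. No protein folding gene was measured in either contrast with macrometastasis, and no erythroid or megakaryocyte gene in either contrast of Ctrl libraries, so nothing could differ there. Of the ribosome production list, 0 of 8 in micrometastasis and 1 of 1 in macrometastasis (Nolc1) were higher in Tim3-KD, where 5.76 and 9.71% of all genes were. Of the receptors, Ly6c2 was the 1 higher gene, of 13 in micrometastasis and of 12 in macrometastasis, shares near those of all genes (5.76 and 9.71%), and 4 of 8 (Cd93, Csf1r, Ly6c2 and Ly6g) were lower in micrometastasis Ctrl than in adjacent Ctrl, where 15.3% of all genes were lower. Without the cells high in monocyte genes, whose choice used Csf1r, 1 of 5 receptors was lower in that contrast, where 19 of 337 genes were. Of the T and NK cell list, 0 of 3 were different in micrometastasis and 2 of 4 (Cd3d and Gzma) lower in macrometastasis Tim3-KD, where 4.10% of all genes were, with all Ctrl UMIs of Gzma in 1 cell. Of the dendritic cell list, 0 of 2 were different in micrometastasis, and 1 of 3 (Naaa) was higher in macrometastasis Tim3-KD, where 9.71% of all genes were. Mcpt8, a mast cell and basophil protease, was at 38.7 CPM in macrometastasis Tim3-KD and 18.2 CPM in Ctrl, with 31.3% of the former in 1 cell.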
